A study of Mus musculus with 6 samples.

Results

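The comparison is between mouse embryonic stem cells held in rosette_LIM medium and the same cell lines held in LIF_2i medium. Its members are the 4 libraries whose columns carry those labels, out of 6 in the whole series, with 752 of the 1128 wells. Rosette_LIM cells were grown with LIF, 2 µM IWP2 and 0.1 µM PD325901, R1 for 6 passages (passage 28 at collection) and IB10 for 5 passages (passage 33). LIF_2i cells were grown with LIF, 3 µM CHIR99021 and 0.1 µM PD325901, and were at passage 24 in R1 and passage 28 in IB10. Shared by both groups were N2B27 serum-free medium, LIF, the MEK inhibitor PD325901, and plates coated with gelatin and fetal calf serum. IWP2 blocks the secretion of WNT proteins and CHIR99021 blocks GSK3, which turns WNT signalling on inside the cell. The groups therefore differ in WNT state and in the agent that sets it, and culture history and passage number cannot be told apart from that difference. Both lines are long-established stem cell lines from mouse embryos. Each contributed 1 library per medium, so every group holds 2 libraries, and nothing in the labels says that a line was cultured more than once. The p-values therefore measure the spread between these libraries. The remaining 2 libraries, primed_4d (4 days in LIF and IWP2 with Activin A at 20 ng/ml and FGF2 at 12 ng/ml), entered the same fit and are shown only where they bear on a result.

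Mouse pluripotent cells pass through successive states around implantation. In the naive state, held by LIF with inhibitors of MEK and GSK3, the cells resemble the inner cell mass before implantation. As the embryo implants, the epiblast polarises and arranges itself as a rosette around a central point, and later opens a lumen and becomes primed for germ layer formation. WNT signalling through beta-catenin and the TCF/LEF factors holds back this exit from the naive state, and the labels describe the LIM culture as rosette-like.

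SORT-seq, the method used, sorts single cells into plates, reads the 3′ ends of their transcripts and tags each molecule with a UMI. Each library had 188 wells, which were added up because wells are not replicates. Totals of gene counts were 5835894 in R1 and 5164933 in IB10 rosette_LIM libraries, against 6868408 and 7806882 in LIF_2i libraries. Wells with fewer than 6000 counts numbered 9 and 38 in rosette_LIM, against 28 and 4 in LIF_2i. In the R1 LIF_2i library 2 wells held 13.7% of the counts. Per count of ERCC spike-in RNA, rosette_LIM libraries held 51.2 and 48.0 gene counts, against 69.1 and 73.4 in LIF_2i libraries. These are ratios of library totals, and the 2 deep wells count towards that of R1 LIF_2i. The median ratio over wells was 49.1 and 52.4 in rosette_LIM, against 59.0 and 71.8 in LIF_2i. Less RNA per cell and fewer molecules captured per cell cannot be told apart here. Scaling by the library totals of spike-in counts, instead of by total RNA, moved the median log2 fold change of all genes to −0.55. Every change below is therefore relative to the other RNA of the same cells. Levels are given in CPM, counts brought to a common library size with TMM scaling, and where a group has a pair of values R1 stands before IB10.

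A gene was called changed when its adjusted p in edgeR's quasi-likelihood test was under 0.05. Of 12098 genes tested, 385 were called higher in rosette_LIM, which is 3.18% of all genes tested, and 283 were called lower, which is 2.34%. Counts of called members in every gene list below are to be read beside these shares. All 668 moved the same way in both lines. The test, with the cell line as a block, favours such genes, so this count is no separate measure of agreement between the lines. The called changes were mostly moderate: 191 of the higher genes and 120 of the lower genes had at least a 2-fold change, while 71 and 58 had less than a 1.5-fold change. Scaled by spike-ins, 41 genes were called higher and 533 lower, so the split between directions depends on reading levels relative to total RNA. The median log2 fold change was 0.99 among the higher genes and −0.88 among the lower genes, beside 0.00 over all genes. RefSeq annotates 655 of the called genes as protein coding and 8 as long non-coding RNA. The count of calls fell when a LIF_2i library was left out, but not when a rosette_LIM or primed_4d library was. The spread is then estimated from fewer libraries, and what brings about the fall was not tested. Without the R1 LIF_2i library, 29 genes were called higher and 35 lower, and without the IB10 LIF_2i library 85 and 59, where the lone LIF_2i library is assumed to vary like the other groups. Of the 153 called genes that the rule for named genes picks, 31 kept their call under every alternative tried, among them Crabp2, Prmt8, Calca, Fbp2, Neurod1, Sox21, Ctsc, Cd63, Ube2l6, Stx3, Plagl1 and Nefl.

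Pou5f1, Sox2, Zfp42 and Nanog did not pass the test. Pou5f1 had 615 and 441 CPM in rosette_LIM, against 602 and 576 CPM in LIF_2i (log2 fold change −0.17 ± 0.11, edgeR adjusted p = 0.44). Sox2 had 861 and 818 CPM against 584 and 765 CPM (edgeR adjusted p = 0.12), and Zfp42, a marker of the naive state, had 1377 and 1190 CPM against 1165 and 1061 CPM (edgeR adjusted p = 0.47). Nanog had an edgeR adjusted p of 0.51. Of 29 tested naive pluripotency genes, 2 (6.90%) rose and 3 (10.3%) fell, beside 3.18% and 2.34% of all genes. Among 27 tested formative and primed genes, 6 (22.2%) rose and 2 (7.41%) fell. The rises included Foxp1, a forkhead factor, with 35.8 and 49.1 CPM in rosette_LIM against 12.6 and 18.4 CPM in LIF_2i (log2 fold change 1.46 ± 0.15, edgeR adjusted p = 3.5e-05). Within this list Dnmt3a rose (log2 fold change 0.72) and Dnmt3b fell (log2 fold change −0.92), both being methyltransferases that set new DNA methylation. The rises of this list numbered 2 with either LIF_2i library left out.

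Among genes of at least 20 CPM, the largest rises mixed signalling peptides, receptors, secreted proteins and genes best known from neurons. Crabp2, a carrier of retinoic acid (chr3:87948693-87953372 in GRCm38.p6), had 25.5 and 34.5 CPM in rosette_LIM against 2.57 and 4.48 CPM in LIF_2i. Prmt8, a membrane-bound arginine methyltransferase known from neurons (chr6:127689009-127769467), had 34.4 and 50.1 CPM against 5.14 and 7.81 CPM. Its log2 fold change was 2.70 ± 0.21 (edgeR adjusted p = 5.9e-06), and its level in primed_4d, 4.70 and 4.16 CPM, was as low as in LIF_2i. Fbp2, a gluconeogenic fructose-bisphosphatase, had 40.1 and 29.6 CPM against 9.57 and 8.06 CPM, and was at 0.854 and 0.757 CPM in primed_4d.

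Calca, which encodes the precursor of calcitonin and of a neuropeptide, had 26.6 and 19.7 CPM in rosette_LIM against 4.14 and 3.84 CPM in LIF_2i (log2 fold change 2.53 ± 0.23, edgeR adjusted p = 1.6e-05). Grm2, a metabotropic glutamate receptor, had 19.1 and 24.8 CPM against 3.43 and 7.17 CPM. Srgn, the core protein of a secretory granule proteoglycan, had 21.2 and 21.1 CPM against 4.28 and 4.74 CPM. In each of these genes the lower rosette_LIM library lay well above the higher LIF_2i library. Ccl25, a chemokine, had 35.4 and 21.3 CPM against 7.71 and 9.22 CPM. Igfbp7, a secreted binding protein of insulin-like growth factors, had 42.6 and 24.8 CPM against 7.85 and 12.7 CPM. Runx1t1, a transcriptional corepressor, had 19.5 and 41.1 CPM against 7.28 and 7.30 CPM. The other rises of this group were Lefty1, Crmp1, Col4a1, Sox21, D8Ertd82e and 1500009L16Rik. All 15 kept their call without the IB10 LIF_2i library, and 10 kept it without the R1 LIF_2i library.

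**Figure D1:**
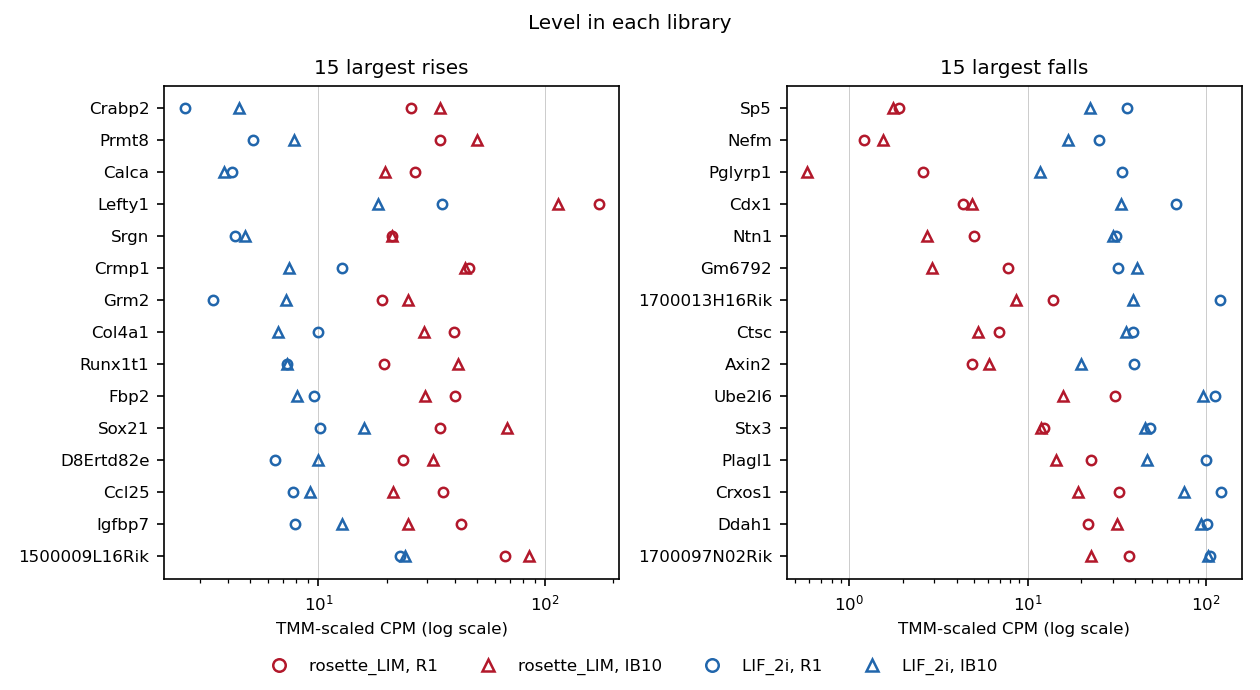
TMM-scaled CPM on a log scale in each of the 4 libraries (circles R1, triangles IB10; red rosette_LIM, blue LIF_2i) for the 15 largest called rises and the 15 largest called falls among genes of at least 20 CPM. The libraries of the 2 media do not overlap in any of the 30 genes, which were picked for their size of change.

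Beyond Sp5, Cdx1 and Axin2, the largest falls held proteolytic, ubiquitin-pathway, membrane and imprinted genes. Ctsc, a lysosomal dipeptidyl peptidase (chr7:88278024-88315861), had 6.95 and 5.26 CPM in rosette_LIM against 39.1 and 35.6 CPM in LIF_2i (log2 fold change −2.61 ± 0.21, edgeR adjusted p = 5.9e-06). Ube2l6, an enzyme that passes on the ubiquitin-like protein ISG15 (chr2:84798828-84810003), had 30.9 and 15.8 CPM against 112.6 and 96.1 CPM, and a log2 fold change of −2.20 ± 0.17. In wells thinned to 6000 UMIs, Ube2l6 was seen in 13.97% (Wilson 95% interval 9.64% to 19.8%) and 11.3% (7.20% to 17.4%) of 179 and 150 rosette_LIM wells. The shares were 50.6% (43.0% to 58.3%) and 38.0% (31.3% to 45.2%) of 160 and 184 LIF_2i wells. Over all wells without thinning, they were 50% and 30.3% in rosette_LIM against 79.3% and 85.6% in LIF_2i. Such intervals cover counting error only.

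Plagl1, an imprinted zinc finger factor, had 22.6 and 14.4 CPM in rosette_LIM against 99.6 and 46.7 CPM in LIF_2i (log2 fold change −1.94 ± 0.17, edgeR adjusted p = 1.1e-05). Stx3, a membrane fusion protein of the apical surface, had 12.3 and 11.9 CPM against 48.4 and 45.7 CPM, whereas primed_4d libraries held 69.6 and 52.8 CPM. Ddah1, which breaks down methylated arginine, had 21.9 and 31.6 CPM against 100.8 and 94.1 CPM. Crxos1, a homeobox gene of early embryos, had 32.3 and 19.1 CPM against 121.5 and 74.9 CPM. The remaining falls were Nefm, Pglyrp1, Ntn1, Gm6792, 1700013H16Rik and 1700097N02Rik. All 15 kept their call without the IB10 LIF_2i library and 14 without the R1 LIF_2i library.

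Genes of cholesterol synthesis rose across nearly the whole pathway. Of 20 tested enzymes, 15 (75%) were called higher and 1 (5%) lower, beside 3.18% and 2.34% of all genes, and 4 were not called. The median log2 fold change was 0.68. Both rosette_LIM libraries lay above both LIF_2i libraries in 18 of the 20, beside 24.9% of all genes. The rise began at the first steps: Hmgcs1, which makes HMG-CoA, had 529 and 558 CPM in rosette_LIM against 317 and 326 CPM in LIF_2i. Mvk, the mevalonate kinase, had 44.5 and 70.8 CPM against 28.7 and 29.8 CPM, with log2 fold changes of 0.63 in R1 and 1.25 in IB10. Its extra term for IB10 rosette_LIM cells, described below, was not called (edgeR adjusted p = 0.27). Squalene synthase Fdft1 had 377 and 394 CPM against 228 and 235 CPM, and squalene epoxidase Sqle had 155 and 210 CPM against 123 and 127 CPM.

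The later, sterol-modifying steps were less uniform. Nsdhl had 69.1 and 76.4 CPM in rosette_LIM against 42.1 and 42.4 CPM in LIF_2i, and Dhcr7, the last enzyme of one branch, had 89.8 and 95.7 CPM against 66.1 and 67.3 CPM. Cyp51, the lanosterol demethylase, had 167 and 151 CPM against 124 and 120 CPM and was not called (edgeR adjusted p = 0.075). Ebp, a sterol isomerase, fell to 50.2 and 48.0 CPM, against 63.4 and 78.6 CPM (log2 fold change −0.53 ± 0.14, edgeR adjusted p = 0.044). Of 24 tested genes of fatty acid synthesis, SREBP control and lipid uptake, 3 rose and 1 fell. Among the rises, Insig1, which retains the SREBP complex, had 186 and 175 CPM against 107 and 113 CPM.

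Fatty acid genes were not called: Scd2, a desaturase, had 902 and 792 CPM in rosette_LIM against 925 and 826 CPM in LIF_2i, and Fasn had 180 and 229 CPM against 229 and 208 CPM. The median of that list was 0.00, beside 0.68 for cholesterol synthesis. Srebf2, the SREBP factor that drives sterol genes, was not called (log2 fold change −0.25 ± 0.17). No cholesterol enzyme was called higher without the R1 LIF_2i library, and 2 were without the IB10 LIF_2i library, and the sign of the change was positive in both lines for 18 of the 20. None was called higher when libraries were scaled by spike-ins, and 10 were called with no block for the cell line, where it was 15 with the block.

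**Figure D2:**
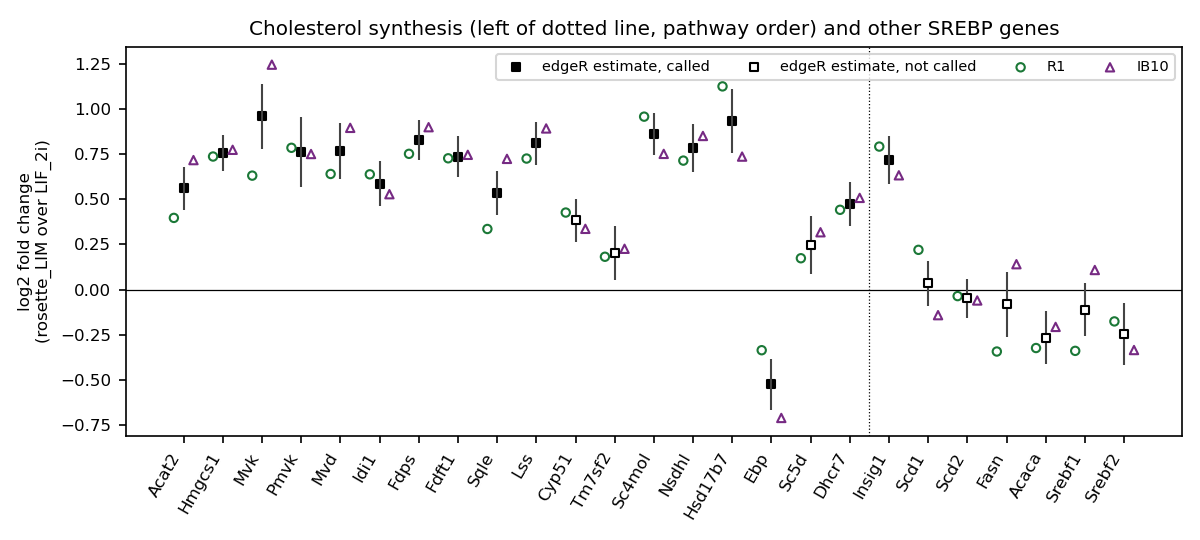
Log2 fold change of rosette_LIM over LIF_2i for cholesterol enzymes in pathway order and, right of the dotted line, other SREBP-related genes; not every tested member is drawn. Squares are edgeR estimates with standard errors (filled where called), circles R1 and triangles IB10; most enzymes drawn were called higher, Ebp was called lower, and fatty acid genes lay near 0.

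Sterol genes are classically switched on by SREBP factors, which bind a sterol response element next to sites of NF-Y, a factor that reads the letters CCAAT. RefSeq promoter sequences of the GRCm38.p6 build covered 15 of the 20 enzymes. The share of the whole list with a motif was not compared with all promoters, because fewer than 80% had a sequence. Below are the 250 bases before the start site for 3 enzymes that rose and for Ebp, which fell, written 5′ to 3′ on the gene's strand. Capitals mark CCAAT on either strand and, in Hmgcs1, also TCACNCCAC on either strand, which stands for the sterol response element.
Hmgcs1 (chr13:119690101-119690350, plus strand): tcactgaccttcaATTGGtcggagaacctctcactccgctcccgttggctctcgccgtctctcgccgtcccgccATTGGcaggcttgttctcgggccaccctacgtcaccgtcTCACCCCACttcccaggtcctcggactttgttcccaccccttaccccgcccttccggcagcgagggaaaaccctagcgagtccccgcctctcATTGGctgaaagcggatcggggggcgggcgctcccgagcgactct
Mvk (chr5:114444019-114444268, plus strand): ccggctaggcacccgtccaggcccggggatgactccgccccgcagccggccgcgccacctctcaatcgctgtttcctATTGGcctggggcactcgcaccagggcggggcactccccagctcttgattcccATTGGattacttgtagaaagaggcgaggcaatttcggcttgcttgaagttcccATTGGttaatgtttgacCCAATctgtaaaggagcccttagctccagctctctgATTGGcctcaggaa
Msmo1 (chr8:64733579-64733828, minus strand): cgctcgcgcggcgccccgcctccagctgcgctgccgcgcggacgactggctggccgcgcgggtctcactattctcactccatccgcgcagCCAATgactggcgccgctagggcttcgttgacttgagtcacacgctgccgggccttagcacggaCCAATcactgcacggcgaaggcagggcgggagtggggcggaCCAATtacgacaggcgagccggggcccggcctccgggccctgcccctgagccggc
Ebp (chrX:8193513-8193762, minus strand): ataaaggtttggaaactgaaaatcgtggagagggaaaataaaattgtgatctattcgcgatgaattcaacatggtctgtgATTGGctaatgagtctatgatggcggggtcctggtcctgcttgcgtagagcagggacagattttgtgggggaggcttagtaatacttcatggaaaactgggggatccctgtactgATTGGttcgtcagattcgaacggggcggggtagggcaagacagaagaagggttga
Msmo1 is the RefSeq name of Sc4mol, a sterol methyl oxidase that rose to 436 and 325 CPM, against 225 and 193 CPM. Hmgcs1 held 1 match of TCACNCCAC, 137 to 129 bases before its start, and 3 matches of CCAAT. Of the 15 enzymes with a sequence, Hmgcs1 was the only 1 to hold TCACNCCAC, so it is not typical of them. CCAAT was held by 13 of the 15. Mvk held 5 matches of CCAAT, Msmo1 3 and Ebp 2. Over all 27025 promoters of this length, 1.04% held TCACNCCAC and 34.5% held CCAAT. These are matches of letters, not measured binding.

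Genes of the neuronal cytoskeleton changed in both directions. Of 20 tested, 8 (40%) were called higher and 2 (10%) lower, beside 3.18% and 2.34% of all genes. Tuba1a, the alpha-tubulin of young neurons (chr15:98949847-98953501), had 995 and 895 CPM in rosette_LIM against 388 and 291 CPM in LIF_2i (log2 fold change 1.49 ± 0.11, edgeR adjusted p = 5.5e-06). In wells thinned to 6000 UMIs it was seen in 100% (Wilson 95% interval 97.9% to 100%) and 97.3% (93.3% to 99.0%) of rosette_LIM wells. The shares were 85% (78.7% to 89.7%) and 81.5% (75.3% to 86.5%) of LIF_2i wells, so that most wells of either medium carried it. Over all wells without thinning the shares were 97.3% and 87.8% against 89.4% and 98.9%. Tuba1a shares most of its coding sequence with other alpha-tubulins, so reads that match several copies make its count uncertain, and its call was lost under spike-in scaling. Crmp1, of the collapsin response mediator family, had 46.2 and 44.3 CPM against 12.7 and 7.42 CPM. Its relatives Dpysl2, Dpysl3 and Dpysl4 were also called higher, with log2 fold changes of 0.98, 2.22 and 2.81. Gap43, a growth cone protein, had 22.2 and 14.04 CPM against 2.43 and 4.74 CPM.

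The neurofilament genes split. Nefh, the heavy chain, rose to 84.2 and 75.6 CPM, against 46.4 and 33.8 CPM (log2 fold change 1.01 ± 0.14, edgeR adjusted p = 0.00061). Nefl, the light chain, fell to 16.3 and 12.1 CPM, against 49.0 and 43.8 CPM (log2 fold change −1.71 ± 0.18, edgeR adjusted p = 4.4e-05). Nefm, the medium chain, fell to 1.22 and 1.56 CPM, against 24.98 and 16.9 CPM (log2 fold change −3.91 ± 0.36). Stmn2 and Tubb2b, also neuronal by reputation, were abundant in both media and not called. Without the R1 LIF_2i library 3 members were called higher, and without the IB10 LIF_2i library 4, while Nefl and Nefm kept their calls in both cases.

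Of 23 tested neural transcription factors, 7 (30.4%) were called higher, beside 3.18% of all genes, and none lower. The median log2 fold change of the list was 0.86. Both rosette_LIM libraries lay above both LIF_2i libraries in 14 of the 23, beside 24.9% of all genes. Neurod1, a bHLH factor of neurons and endocrine cells, had 12.7 and 15.4 CPM in rosette_LIM against 2.71 and 4.10 CPM in LIF_2i (log2 fold change 2.05 ± 0.25, edgeR adjusted p = 0.00018). Sox21, a SOXB2 factor, had 34.2 and 67.6 CPM against 10.1 and 15.9 CPM. Otx2, a homeobox factor of the epiblast and forebrain, had 13.4 and 15.2 CPM against 1.71 and 3.84 CPM. Several of the others were low in both media, such as Insm1 at 2.95 and 1.56 CPM against 0.143 and 0 CPM. All 7 calls held under spike-in scaling, 3 without the R1 LIF_2i library and 5 without the IB10 LIF_2i library. Of 7 tested markers of neuroectoderm 3 rose, Pax6, Tubb3 and Ncam1, and the list summed to 274 and 238 CPM against 125 and 112 CPM. None of these 3 marker calls held without the R1 LIF_2i library, 2 held without the IB10 LIF_2i library, and 1 held under spike-in scaling. Sox1 had 10.1 and 7.60 CPM against 4.85 and 4.74 CPM (edgeR adjusted p = 0.12). Fabp7 was at 0 in each of the 4 libraries and Neurog2 had at most 2 counts.

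Retinoid genes also moved in both directions. Of 16 tested, 4 (25%) were called higher and 2 (12.5%) lower, beside 3.18% and 2.34% of all genes. Besides Crabp2, Rara, a retinoic acid receptor, had 50.5 and 59.8 CPM in rosette_LIM against 27.6 and 32.9 CPM in LIF_2i. Dhrs3, which reduces retinal to retinol, had 13.7 and 16.6 CPM against 5.42 and 8.19 CPM. Stra8, a germ cell gene induced by retinoic acid, had 80.6 and 55.2 CPM against 24.7 and 35.3 CPM. With either LIF_2i library left out 1 rise and no fall of this list was called.

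Of 14 tested WNT targets, 6 (42.9%) fell, beside 2.34% of all genes, and none rose. Among those less often used as readouts, Bmp4, a BMP ligand, fell to 12.2 and 6.43 CPM, against 30.6 and 24.2 CPM (log2 fold change −1.57 ± 0.22, edgeR adjusted p = 0.00068). Tnfrsf19 fell to 9.90 and 10.5 CPM, against 16.6 and 20.2 CPM. Ccnd1, a G1 cyclin, and Tbx3 were not called (log2 fold changes −0.21 and −0.19). Of these 6 falls, 2 kept their call without the R1 LIF_2i library and 4 without the IB10 LIF_2i library. The promoter of Sp5, the target with the largest fall, is shown with the TCF/LEF core letters ATCAAAG or their complement in capitals.
Sp5 (chr2:70474673-70474922, plus strand): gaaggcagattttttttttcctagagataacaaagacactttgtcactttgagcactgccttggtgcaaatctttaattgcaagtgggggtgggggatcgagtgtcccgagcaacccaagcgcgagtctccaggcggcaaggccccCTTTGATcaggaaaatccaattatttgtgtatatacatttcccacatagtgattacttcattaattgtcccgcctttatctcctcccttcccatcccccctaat
Its single match lay 104 to 98 bases before the start, on the opposite strand, and 3.23% of all promoters of this length held one. Of the 20 WNT targets listed, 9 had a promoter sequence, and Sp5 was the only 1 of these to hold a match.

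Of 32 tested WNT ligands, receptors and transducers, 3 rose and 2 fell, which is 9.38% and 6.25%, beside 3.18% and 2.34% of all genes. Sfrp5, a secreted WNT antagonist, rose to 14.9 and 22.0 CPM, against 1.57 and 4.74 CPM (log2 fold change 2.59 ± 0.32, edgeR adjusted p = 0.00022). Lgr4, a receptor for R-spondins, rose to 42.4 and 56.0 CPM, against 30.7 and 30.7 CPM. Ror2, a WNT co-receptor, fell to 17.5 and 12.3 CPM, against 29.98 and 25.9 CPM, and Dvl1, a transducer, fell to 10.2 and 10.1 CPM, against 20.8 and 14.8 CPM. Ctnnb1, which encodes beta-catenin, and Tcf7l1 were not called. In other pathways, Id3, a BMP target, fell to 35.8 and 35.3 CPM, against 53.5 and 108 CPM, while its relative Id2 rose to 5.91 and 7.02 CPM, against 1.86 and 2.94 CPM. Of the calls among WNT ligands, receptors and transducers, that of Sfrp5 alone held with either LIF_2i library left out, and axon guidance kept at most 2 of its 5 calls. In axon guidance, 2 of 33 genes (6.06%) rose and 3 (9.09%) fell. Efnb2, an ephrin, rose to 11.5 and 10.3 CPM, against 2.57 and 3.84 CPM. Nrp2, a semaphorin receptor, fell to 3.30 and 3.70 CPM, against 10.1 and 11.4 CPM.

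Of 35 tested lysosomal genes, 7 (20%) were called lower and 1 (2.86%) higher, beside 2.34% and 3.18% of all genes. The median log2 fold change was −0.14. Both rosette_LIM libraries lay below both LIF_2i libraries in 14 of the 35, beside 23.5% of all genes. Besides Ctsc, the fall included Cd63, a tetraspanin of late endosomes, with 108 and 79.9 CPM in rosette_LIM against 185 and 185 CPM in LIF_2i (log2 fold change −0.99 ± 0.13, edgeR adjusted p = 0.00034). The cathepsin Ctsb had 66.9 and 71.0 CPM against 95.2 and 112 CPM, and Ctsl had 115 and 101 CPM against 154 and 137 CPM. Npc2, which carries cholesterol out of lysosomes, had 126 and 113 CPM against 173 and 149 CPM. Glb1, a beta-galactosidase, was the single rise, with 62.7 and 60.8 CPM against 40.3 and 41.3 CPM. The membrane protein Lamp1 was not called, and none of 14 V-ATPase subunits was. With either LIF_2i library left out 2 of the 7 falls were called, Ctsc and Cd63 among the genes called under every alternative tried.

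Of 210 tested solute carriers, 10 (4.76%) were called higher and 7 (3.33%) lower, near the 3.18% and 2.34% of all genes. After their values were seen, some zinc carriers that fell were singled out. The other zinc carriers are not given, so these values do not describe zinc carriers as a group. Slc30a2 fell to 6.60 and 3.12 CPM, against 20.1 and 19.5 CPM. Slc30a1 fell to 24.5 and 20.1 CPM, against 39.1 and 37.5 CPM, and Slc39a11 to 19.8 and 18.3 CPM, against 34.1 and 33.2 CPM. Mt1, a zinc-binding metallothionein and one of the most abundant genes that fell, had 287 and 337 CPM against 475 and 522 CPM (log2 fold change −0.67 ± 0.16, edgeR adjusted p = 0.019). Its call was lost in DESeq2 and with no block for the cell line. The related Mt2 had 465 and 716 CPM against 658 and 714 CPM and was not called (edgeR adjusted p = 0.63). Among the rises, Slc38a2, a transporter of neutral amino acids, had 226 and 234 CPM against 138 and 92.5 CPM. Of 25 threonine, serine and one-carbon genes 3 fell and none rose: besides Tdh, Cbs, which makes cystathionine, fell to 11.3 and 15.6 CPM, against 31.8 and 28.7 CPM, and Shmt1 to 95.9 and 94.6 CPM, against 136 and 146 CPM. Asns, the asparagine synthetase, fell to 420 and 451 CPM, against 605 and 675 CPM. Without the R1 LIF_2i library 1 of the 3 was called, and without the IB10 LIF_2i library 2.

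The most abundant genes that were called higher changed little in fold. Apart from Tuba1a, they were Atp5b, Rpl39, Hmgb2, Sod1, Ppia, Slc25a5 and Gpx4, with log2 fold changes between 0.35 and 0.54. Atp5b, a subunit of ATP synthase, had 2335 and 2134 CPM in rosette_LIM against 1612 and 1760 CPM in LIF_2i. Gpx4, which protects membrane lipids from peroxidation, had 858 and 1047 CPM against 693 and 661 CPM, and Sod1 had 1146 and 1202 CPM against 865 and 909 CPM. Under spike-in scaling all 7 lost their call and turned to log2 fold changes between −0.19 and −0.011. Rpl39 and Ppia have many processed copies in the genome, and no source used here gives how reads that match several copies were counted. Of 30 glutathione and antioxidant genes, 4 (13.3%) rose and 3 (10%) fell, beside 3.18% and 2.34% of all genes. The falls were Gsto1, Gss, which makes glutathione, and Txnrd1. None of these 7 calls held with either LIF_2i library left out.

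The most abundant genes that fell included RNA-binding proteins and a translation regulator. Igf2bp1, an mRNA-binding protein of early embryos, had 529 and 513 CPM in rosette_LIM against 856 and 720 CPM in LIF_2i (log2 fold change −0.59 ± 0.11, edgeR adjusted p = 0.0050). Larp1, a regulator of ribosomal protein mRNAs, had 387 and 404 CPM against 540 and 542 CPM, and Mkrn1 had 309 and 386 CPM against 501 and 576 CPM. Tcof1, a nucleolar factor of ribosomal RNA synthesis, had 405 and 290 CPM against 553 and 548 CPM. Of the 8 most abundant genes that fell, 1 kept its call without the R1 LIF_2i library and 3 without the IB10 LIF_2i library, and Igf2bp1, Larp1, Tcof1 and Mkrn1 all lost theirs without the R1 LIF_2i library. The row named Mir5109, with 1203 and 1282 CPM against 1960 and 1872 CPM, is uncertain, because reads of longer transcripts across an annotated miRNA cannot be told apart from it. Of 30 ribosome biogenesis genes none was called, and the median was −0.15. In 18 of the 30, both rosette_LIM libraries lay below both LIF_2i libraries, beside 23.5% of all genes.

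Of 19 hypoxia genes 4 (21.1%) rose, beside 3.18% of all genes, and none fell. The median log2 fold change of the list was 0.02 in R1 and 0.43 in IB10. In 10 of the 19 the change was above 0 in both lines. Vegfa, the vascular growth factor, had 55.2 and 63.0 CPM in rosette_LIM against 26.6 and 31.6 CPM in LIF_2i (log2 fold change 1.02 ± 0.14, edgeR adjusted p = 0.00072). Epas1, a hypoxia-inducible factor, had 65.5 and 50.9 CPM against 35.5 and 27.0 CPM, and Kdm3a, a histone demethylase, had 189 and 183 CPM against 126 and 129 CPM. Of 30 glycolysis genes 2 (6.67%) rose and 1 (3.33%) fell, and Pkm and Pgam1 were not called. The median of the glycolysis list was −0.09 in R1 and 0.22 in IB10. Of 44 complex I subunits none was called, and of 35 nuclear respiratory chain genes 2 were. None of the 4 hypoxia rises kept its call without the R1 LIF_2i library or under spike-in scaling, and Vegfa alone kept it without the IB10 LIF_2i library.

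Of 25 genes of G2 and M phase, 5 (20%) were called higher, beside 3.18% of all genes, and none lower. In 20 of the 25, both rosette_LIM libraries lay above both LIF_2i libraries, beside 24.9% of all genes. Nusap1, a spindle protein, had 150 and 195 CPM in rosette_LIM against 94.4 and 108 CPM in LIF_2i (log2 fold change 0.77 ± 0.12, edgeR adjusted p = 0.0013). Kif11, a mitotic motor, had 96.9 and 96.3 CPM against 70.0 and 69.1 CPM, but turned to a value just below 0 under spike-in scaling, as did Ccnb2 and Hmmr. In S phase 1 of 23 genes fell and none rose. Among G1 regulators, Cdk6 fell to 5.21 and 6.82 CPM, against 16.7 and 16.1 CPM, and Cdkn1c, an imprinted kinase inhibitor, rose to 6.25 and 15.99 CPM, against 4.57 and 3.97 CPM. No call of the G2 and M phase list held with either LIF_2i library left out. Mycn, a MYC family factor, had 168 and 183 CPM against 89.1 and 124 CPM (edgeR adjusted p = 0.0023). The call of Mycn was lost without the R1 LIF_2i library and under spike-in scaling.

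Among chromatin genes, 3 of 31 Polycomb genes (9.68%) rose, beside 3.18% of all genes, and none fell. Phc1, of the PRC1 complex, had 248 and 358 CPM in rosette_LIM against 181 and 206 CPM in LIF_2i. Phf19, which recruits PRC2, had 5.21 and 6.24 CPM against 1.86 and 1.66 CPM. Sall1 and Kdm4c rose among 16 core pluripotency genes, with log2 fold changes of 0.59 and 0.74. The Polycomb calls and those of Sall1 and Kdm4c were lost with either LIF_2i library left out, and also under spike-in scaling. Of 22 tested interferon and innate immunity genes, 3 (13.6%) rose and 2 (9.09%) fell, beside 3.18% and 2.34% of all genes. Ifitm1 rose to 222 and 214 CPM, against 98.4 and 117 CPM, and Ifitm2 to 439 and 437 CPM, against 267 and 315 CPM. Ddx58, a sensor of viral RNA, fell to 10.9 and 13.1 CPM, against 22.4 and 31.1 CPM. Ifitm1, Ifitm2 and Ddx58 lost their calls without the R1 LIF_2i library, and Ifitm1 and Ifitm2 also lost theirs under spike-in scaling. Ifitm1 and Ifitm2 are close copies that may share reads.

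Among genes of the cell surface and of epithelial form, none of 18 integrin genes was called, and 1 of 20 apical and lumen genes was. Of 23 cadherin and adhesion genes 2 rose and 1 fell, of 22 basement membrane genes 2 rose and 1 fell, and of 10 keratin and trophectoderm genes 2 rose and 1 fell. Of 19 tight junction genes 2 fell and none rose. In 11 of the 19, both rosette_LIM libraries lay below both LIF_2i libraries, beside 23.5% of all genes. Over all genes, 3.18% rose and 2.34% fell. Of the desmosomal genes, Dsp, the plaque protein desmoplakin, rose to 30.7 and 32.4 CPM, against 12.8 and 13.6 CPM (log2 fold change 1.25 ± 0.18, edgeR adjusted p = 0.00091). Dsg2, a desmosomal cadherin, fell to 45.2 and 29.6 CPM, against 87.2 and 66.6 CPM (log2 fold change −1.05 ± 0.14, edgeR adjusted p = 0.00055). Neither desmosomal gene kept its call without the R1 LIF_2i library. Cdh1, E-cadherin, and Ctnna1 were not called. In the basement membrane list the collagen IV chains Col4a1 and Col4a2 rose and Fbln1, a matrix protein, fell to 5.21 and 6.04 CPM, against 16.3 and 12.8 CPM. Of these basement membrane calls, that of Col4a1 alone held with either LIF_2i library left out, and no tight junction or keratin call did. Krt42, a keratin, rose to 17.4 and 22.8 CPM, against 6.28 and 10.1 CPM. No gene was called among 48 proteasome subunits, 35 splicing factors or 30 chaperones, and 1 of 94 cytosolic ribosomal proteins was.

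**Figure D3:**
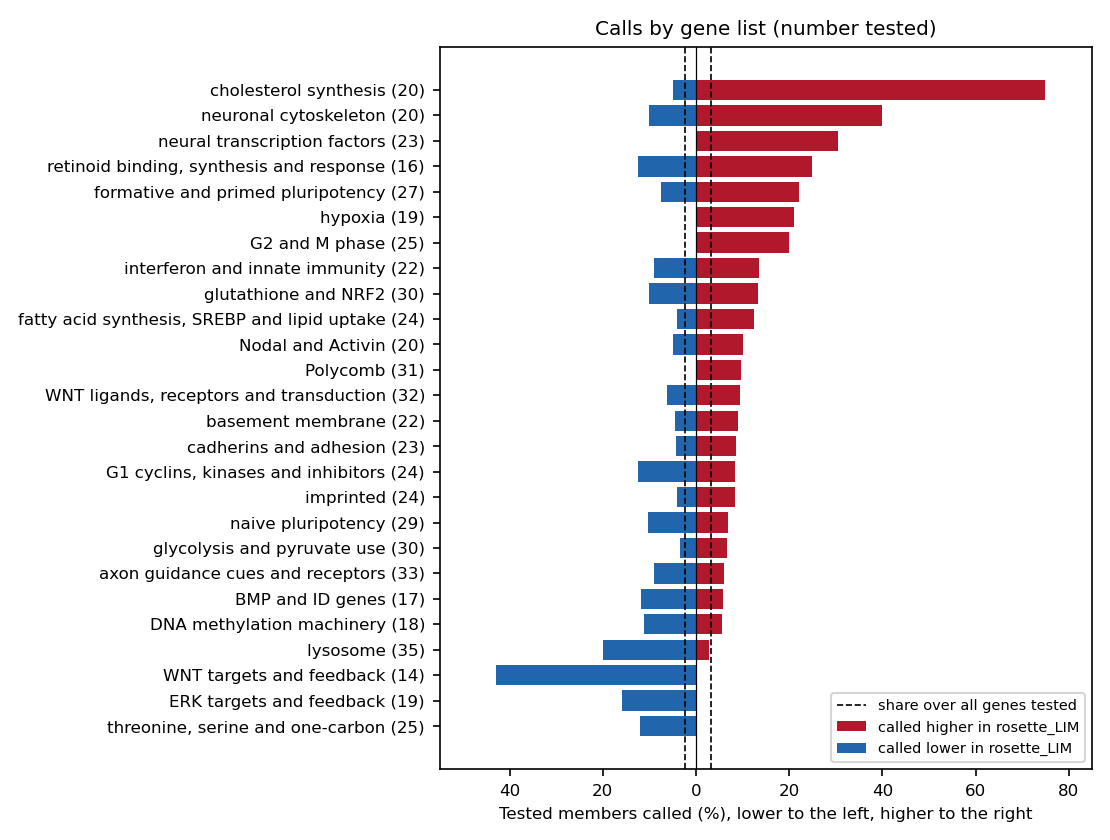
Share of tested members called higher (red, to the right) and lower (blue, to the left) in rosette_LIM against LIF_2i for the 26 lists with at least 14 tested members and at least 3 calls, a choice made after the calls were known. Dashed lines mark the shares over all genes, 3.18% and 2.34%; cholesterol synthesis has the longest bar to the right and WNT targets the longest to the left.

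Of 17 primitive endoderm genes 7 could be tested, 2 rose and 1 fell, and their summed level was 663 and 570 CPM in rosette_LIM against 588 and 646 CPM in LIF_2i. Afp had no count in any of the 4 libraries, and Gata6 and Sox17 had fewer than 10 counts in each of the 4 libraries. Of 5 tested mesendoderm genes, T fell, and the list summed to 14.2 and 14.4 CPM against 21.3 and 27.5 CPM. None of 5 tested fibroblast genes was called, at 18.2 and 9.75 CPM summed against 15.7 and 16.5 CPM, and Col3a1 was at 0. None of 3 tested genes of the 2-cell-like state was called. Of 17 genes induced by dissociation, Jund and Klf6 were called higher, and Jund turned to a value just below 0 under spike-in scaling.

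Most genes with a large response in 1 line moved the same way in the other. The response was computed within each line for the 11249 genes with at least 50 counts over the 4 libraries. In R1, 422 genes (3.75% of these) were at least 2-fold higher in rosette_LIM and 294 (2.61%) at least 2-fold lower. In IB10, 365 (3.24%) were at least 2-fold higher and 329 (2.92%) at least 2-fold lower. Of the 422 genes picked as higher in R1, 83.2% were also higher in IB10, where 49.95% of all genes were, and 38.4% passed 2-fold there. Of the 294 picked as lower in R1, 82.3% were lower in IB10 and 39.1% passed 2-fold. Picked in IB10, 86.3% of the higher and 77.2% of the lower genes moved the same way in R1.

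The size of the response shrank in the line that had not picked the genes. Among genes picked as higher in R1 the median log2 fold change was 1.33 in R1 and 0.77 in IB10. Genes picked in IB10 as lower had a median of −1.37 in IB10 and −0.63 in R1. In both lines at once, 162 genes were at least 2-fold higher and 115 at least 2-fold lower. Of these, 120 and 88 were among the called genes. Only 10 genes passed 2-fold in opposite directions. Across genes, which are not independent replicates and share the libraries' normalization, Pearson's r of the responses was 0.51. Over the 4178 genes with at least 1000 counts it was 0.61.

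**Figure D4:**
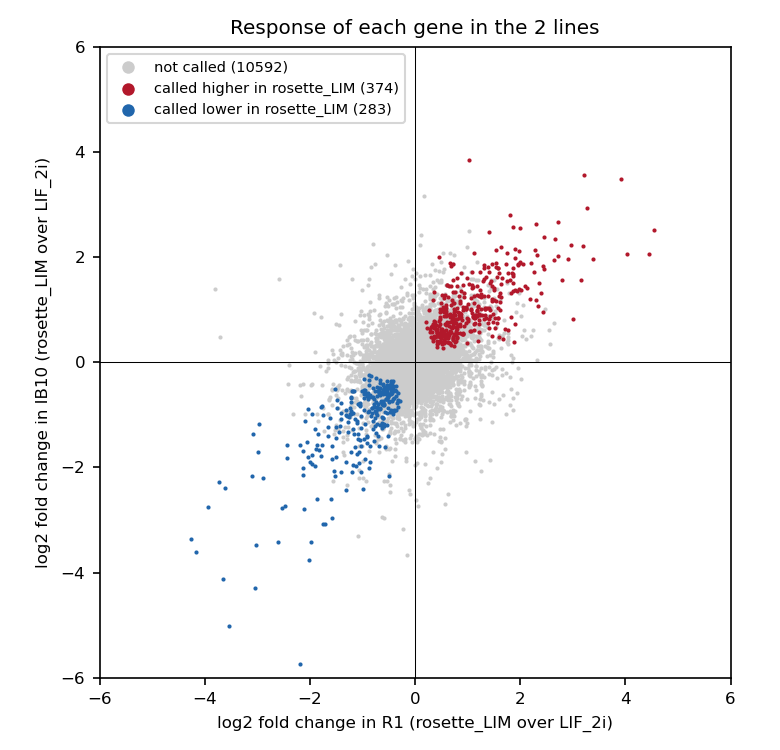
Log2 fold change of rosette_LIM over LIF_2i in R1 (x axis) and IB10 (y axis) for the 11249 genes with at least 50 counts. Called genes are red (374 higher) or blue (283 lower). All lie in the quadrants where both lines move the same way, which the test that called them favours. Most grey genes lie near 0.

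The difference between the lines' responses was tested as an extra term for IB10 rosette_LIM cells, which takes the difference between the lines as equal in LIF_2i and primed_4d. Its log2 difference is therefore read against the LIF_2i and primed_4d libraries together, and is not the response to the medium in IB10 minus that in R1. It was called for 77 of 12098 genes (0.636%), 43 with a larger and 34 with a smaller value in IB10 rosette_LIM cells than the other libraries predicted. Of the 668 genes called between the media, 8 were among them. The 6 lowest p-values among genes of at least 20 CPM belonged to Mid1, Dazl, Lars2, Rn45s, Gm10785 and Ajuba. Mid1, a microtubule-bound ubiquitin ligase on the X chromosome (chrX:169685199-169990798), had 37.9 and 121 CPM in rosette_LIM against 15.4 and 199 CPM in LIF_2i. R1 thus had less Mid1 than IB10 in both media, and the gap between the lines was smaller in rosette_LIM (log2 difference −2.32 ± 0.25, edgeR adjusted p = 4.5e-17). In laboratory mice Mid1 lies at the boundary of the pseudoautosomal region.

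Dazl and Stra8, both known from the germ line, were among the 77. Dazl, an RNA-binding protein of germ cells, had 140 and 61.8 CPM in rosette_LIM against 88.1 and 137 CPM in LIF_2i, higher in R1 and lower in IB10 (log2 difference −1.90 ± 0.23, edgeR adjusted p = 2e-12). Stra8 rose in both lines, with log2 fold changes of 1.70 in R1 and 0.64 in IB10. Its extra term, read against LIF_2i and primed_4d together, was −1.56 ± 0.27 (edgeR adjusted p = 5.5e-06). Slc2a1, a glucose transporter, had 98.7 and 201 CPM in rosette_LIM against 98.5 and 97.4 CPM in LIF_2i, so that R1 hardly differed between media while IB10 rosette_LIM was higher (log2 difference 0.88 ± 0.20, edgeR adjusted p = 0.0041). Chac1, which degrades glutathione, rose more in IB10, with 7.99 and 32.8 CPM against 4.85 and 8.96 CPM. Ajuba, a LIM-domain adaptor, had 78.2 and 122 CPM against 106 and 71.0 CPM. With 1 library per line and medium, a difference between these lines cannot be told apart from a difference between single cultures or plates.

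**Figure D5:**
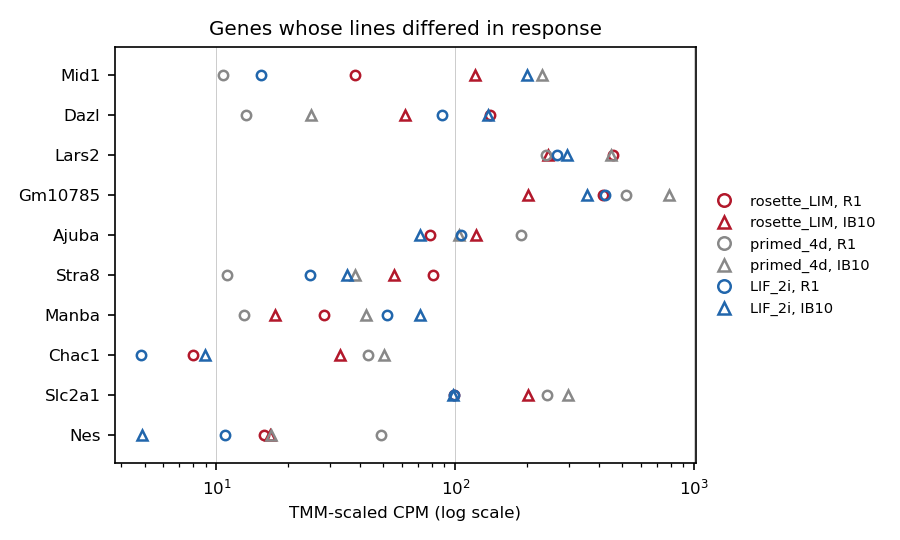
TMM-scaled CPM on a log scale in each of the 6 libraries (circles R1, triangles IB10) for 10 genes called in edgeR's test of the extra term for IB10 rosette_LIM cells. Mid1 shows the widest gap between the lines in LIF_2i and primed_4d, and Slc2a1 is raised in IB10 but not in R1 rosette_LIM cells.

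The median log2 fold change per autosome or X chromosome lay between −0.03 and 0.04. The 5 tested genes of the Y chromosome had a median of −0.83 in R1 and −0.18 in IB10. Ddx3y, a Y-linked RNA helicase, was called lower, with 89.1 and 89.1 CPM in rosette_LIM against 159 and 107 CPM in LIF_2i (edgeR adjusted p = 0.043), and the part of Y-linked expression in other results was not tested.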

How the data were processed

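Single-cell RNA-seq of 6 libraries was deposited as 1 table of 19532 genes and 91 ERCC spike-ins by 1128 wells. Per the submitters' processing notes, reads were mapped with BWA to mm10 (GRCm38); versions, annotation, strand use and plate layout are not given there. The deposited values are estimated counts: UMI counts that the authors corrected for collisions, since all 1297 distinct values match the correction for 4096 possible UMIs within 0.01. They are not scaled for depth. The labels state 192 wells per sample, 4 of them empty.

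Values were summed per library and rounded. edgeR 4.0.16 (R 4.3.3) tested rosette_LIM against LIF_2i with TMM scaling, filterByExpr at a minimum count of 10, and quasi-likelihood tests on all 6 libraries with the cell line as a block, which the labels give as the pairing. P-values were two-sided and adjusted by Benjamini-Hochberg over 12098 genes at 0.05. With 2 libraries a side, an exact permutation test that ignores the cell line cannot go below p = 0.333. Keeping the lines paired raises that limit, so no permutation test was run. The difference between lines was a rosette_LIM-by-IB10 term with 1 residual degree of freedom. On simulated counts, the rosette_LIM fit found 65 of 100 genes changed 2-fold and 97 of 99 changed 4-fold, with 8 false calls among 11803 genes. The fit of line differences found 74.5% of 196 genes changed 4-fold, with 1 false call among 11791 genes. Both simulations gave all genes the same dispersion and, outside the changed genes, no difference between lines or groups. They therefore do not measure the power or the false calls in the real data.

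Alternatives were DESeq2 1.42.0, limma 3.58.1 on log2(CPM + 5), other scalings and filters, well selection, thinning, no block and leaving out libraries. Spike-in scaling was added after seeing the data. All 1128 columns were mapped to samples. Named genes were the 15 largest rises and falls among called genes of at least 20 CPM that moved the same way in both lines; the 8 most abundant called genes in each direction; up to 4 called members per list by adjusted p, or the 2 most abundant uncalled ones where a list is described as not called; the 6 lowest p-values of the line difference; and Pou5f1, Nanog, Sox2, Zfp42, Axin2, Sp5 and Otx2. Some further list members are given by value to complete a pathway and were chosen after their values were seen. The comparison, lists and families were chosen with earlier results of these data known. Promoters and coordinates are from RefSeq on GRCm38.p6. A few list members are not reported here.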

Additional observations from a re-analysis of the deposited data

Results flagged for a closer look

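For the following genes the difference between the lines (log2, IB10 minus R1) was not the same in rosette_LIM as in the other libraries by edgeR's test. Each value is the difference in rosette_LIM less that fitted over LIF_2i and primed_4d together, so it is not the plain difference of the lines' responses to the medium. For Rn45s, for example, the log2 fold change of rosette_LIM over LIF_2i was 0.48 in R1 and −0.09 in IB10. Of genes called between the media, Stra8 (−1.56) and Manba (−1.61) had a lower value in IB10, and Chac1 (1.60) and Myl9 (4.30) a higher one; Myl9 had few counts. Mid1 (−2.32), Dazl (−1.90), Lars2 (−1.41), Gm10785 (−1.22) and Rn45s (−0.997) had lower values in IB10 rosette_LIM cells than the other libraries predicted. Rn45s is the row of the ribosomal RNA precursor. Ajuba (1.37), Slc2a1 (0.88), mtCo1 (0.80), Actg1 (0.62), Nes (1.48) and Zscan4c (4.82) had higher ones. Zscan4c, a gene of the 2-cell-like state, had 6 and 45 counts in rosette_LIM libraries against 111 and 26 in LIF_2i libraries, opposite directions in R1 and IB10. What sets these single libraries apart was not tested.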

How the results depend on the processing

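Against 385 genes higher and 283 lower, DESeq2 called 171 and 108, wells thinned to 6000 UMIs 119 and 89, spike-in (ERCC) scaling 41 and 533, no filter on low counts 575 and 474, and only the 4 libraries 716 and 558. With no replicate block for the cell line, 162 and 119 were called. Leaving out 1 library at a time gave 29 to 565 higher and 35 to 432 lower, the lowest without the R1 LIF_2i library. Median scaling, library totals, limma, a minimum of 50 counts and the well limits stayed within 1.5 times. Under spike-in scaling 17 named genes lost their call and changed sign: Atp5b (−0.13), Rpl39 (−0.14), Hmgb2 (−0.19), Sod1 (−0.14), Ppia (−0.060), Slc25a5 (−0.011), Gpx4 (−0.078), Rybp (−0.021), Ldhb (−0.077), Sdhb (−0.038), Ccnb2 (−0.052), Kif11 (−0.075), Hmmr (−0.13), Mlx (−0.046), Mdm2 (−0.083), Gnas (−0.046) and Jund (−0.00198). This scaling shifts all genes down together. Over both directions together, the share of genes picked in R1 that moved the same way in IB10 was 82.8% at 2-fold, 76.9% at 1.5-fold, 95.5% at 4-fold and 92.4% with 200 counts. Picked in IB10 it was 81.99% at 2-fold, and 77.7%, 89.6% and 92.4% under the same settings. With 2 libraries a side, the spread is estimated over all 6 libraries together, and genes with few counts passed no filter and were not tested.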
